A study of Mus musculus with 4 samples.

Results

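The 7 genes described here, *Scn4a*, *Clcn1*, *Kcnj2*, *Kcnj11*, *Kcnn3*, *Atp1b1* and *Fxyd1*, encode ion channels and sodium pump subunits of the muscle fiber membrane, and all 7 were found by symbol among the 24054 gene symbols of the table. They were measured in the soleus, a slow hindlimb muscle, of female *mdx* mice (C57BL/10ScSn-DMDmdx/J), a dystrophin-deficient strain used for both groups. From 8 weeks of age the mice were infused once a month through the femoral vein, for 12 months, with mouse cardiosphere-derived cells (mCDCs) or with an equal volume of the culture medium IMDM as vehicle. The mCDCs are stromal cells grown from heart explants, here from the heart of a single C57BL/10ScSn/J mouse, and were used at passage 5. Each group had 2 libraries of whole soleus, and the sample records do not say whether the libraries of a group came from separate mice, so that p-values measure only the spread between these libraries.

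Contraction starts with an action potential that runs along the fiber membrane and into the transverse tubules. The sodium channel encoded by *Scn4a* carries the upstroke, the chloride channel encoded by *Clcn1* provides most of the resting conductance that keeps a fiber from firing on its own, and the inward rectifier encoded by *Kcnj2* holds the resting potential. *Kcnj11* encodes the pore of the ATP-sensitive potassium channel, which opens when ATP runs low, and *Kcnn3* a small-conductance calcium-activated potassium (SK) channel that is known to appear in denervated fibers. The sodium-potassium pump restores the ion gradients. *Atp1b1* encodes its β1 subunit, needed to bring the pump to the membrane, and *Fxyd1* encodes phospholemman, a small membrane protein that regulates the pump. Loss of *Clcn1* function gives myotonia, and mutations of *Scn4a* or *Kcnj2* give periodic paralysis.

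Library depth ran from 22481391 to 27187425 expected counts. Values are given as CPM, counts per 1000000 counts after scaling by the trimmed mean of M-values (TMM), and the comparison is edgeR's quasi-likelihood test on the 13652 genes that passed a filter on low counts; adjusted p is the Benjamini-Hochberg value over all of them. A gene is termed called where the groups differed by more than 1.5-fold and the unadjusted p was under 0.05, the study's own criteria. The libraries had the makeup of a slow muscle, with the slow myosin *Myh7* at 38240 to 47470 CPM and the fast myosins *Myh2* at 6749 to 10860, *Myh1* at 603 to 4490 and *Myh4* at 47.5 to 2096 CPM. The 7 endothelial markers summed to 225 CPM in vehicle replicate 2 and to between 98.5 and 126 CPM in the other 3 libraries, and the 7 fibroblast markers to 583 CPM against 321 to 366 CPM. In bulk muscle, fewer cells of a type and less RNA per cell cannot be told apart.

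All 7 genes passed the filter. In GENCODE M21 on GRCm38, the build that the sample records name as mm10, *Scn4a* lies on chromosome 11 (106318592 to 106353288, minus strand), and its longest coding transcript has 24 exons. *Kcnj2* lies on the same chromosome (111066164 to 111076821, plus strand) with 2 exons. *Kcnj11*, a gene with 1 exon in its longest coding transcript, lies on chromosome 7 (46093953 to 46100764, minus strand), as does *Fxyd1* (31051678 to 31057199, minus strand). *Clcn1* lies on chromosome 6 (42286685 to 42315756, plus strand), *Kcnn3* on chromosome 3 (89520164 to 89675132, plus strand) and *Atp1b1* on chromosome 1 (164437109 to 164458355, minus strand). Exons of *Clcn1* and *Atp1b1* overlap genes on the opposite strand, *Fam131b* by 445 bases and *Nme7* by 575 bases. Whether counting used strand is not given in the sources used here, but *Fam131b* had 7.10 to 9.71 CPM and *Nme7* 0.458 to 1.13 CPM. Counts of *Kcnj2* and *Atp1b1* were not whole in any library, and those of the other 5 genes were whole in all 4.

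Per kilobase of transcript, the pump genes stood far above the channels. The level of *Fxyd1* was 633 ± 32.3 CPM per kilobase (SD over the 4 libraries) and that of *Atp1b1* 368 ± 61.5. Among the channels, *Kcnj11* was highest at 63.9 ± 7.27 CPM per kilobase, followed by *Scn4a* at 29.6 ± 5.96, *Clcn1* at 19.5 ± 2.17, *Kcnj2* at 12.5 ± 3.56 and *Kcnn3* at 4.27 ± 1.31. Neighbors in this order did not overlap: the lowest *Scn4a* value, 23.9, lay above the highest *Clcn1* value, 22.2, and the lowest *Clcn1* value, 16.9, just above the highest *Kcnj2* value, 16.5. These levels rest on 1 annotated transcript per gene, from 620 bases for *Fxyd1* to 6598 for *Scn4a*.

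Of the 7 genes, 0 were called between mCDC and vehicle muscles, where 4.0% of all genes tested were called, 172 higher (1.26%) and 374 lower (2.74%). With plain library totals in place of TMM, 121 were higher and 508 lower. *Kcnn3* alone had an unadjusted p under 0.05, which 6.94% of all genes tested had. The median log2 fold change of the 7 genes was 0.06, against -0.0094 for all genes tested. Its sign turned without vehicle replicate 2 (-0.15) and with plain library totals (-0.023). It was 0.22 without vehicle replicate 1, 0.016 without mCDC replicate 1 and 0.10 without mCDC replicate 2. In 3 of the 7, *Kcnj11*, *Clcn1* and *Kcnn3*, both libraries of one group lay on the same side of both libraries of the other, 1 of them higher and 2 lower in mCDC muscles. The same held for 38.7% of all genes tested, 19.2% higher and 19.5% lower. The 95% intervals of *Scn4a*, *Clcn1*, *Kcnj11* and *Fxyd1* lay within a 1.5-fold change in both directions. The interval of *Kcnn3* was the only 1 of the 7 that did not include 0. No gene of the whole table had an adjusted p under 0.05 in edgeR's quasi-likelihood test, where 947 had an unadjusted p under 0.05; 48 had an adjusted p under 0.05 with DESeq2. For a single gene, 2 libraries against 2 cannot give an exact permutation p below 0.333.

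**Figure D1:**
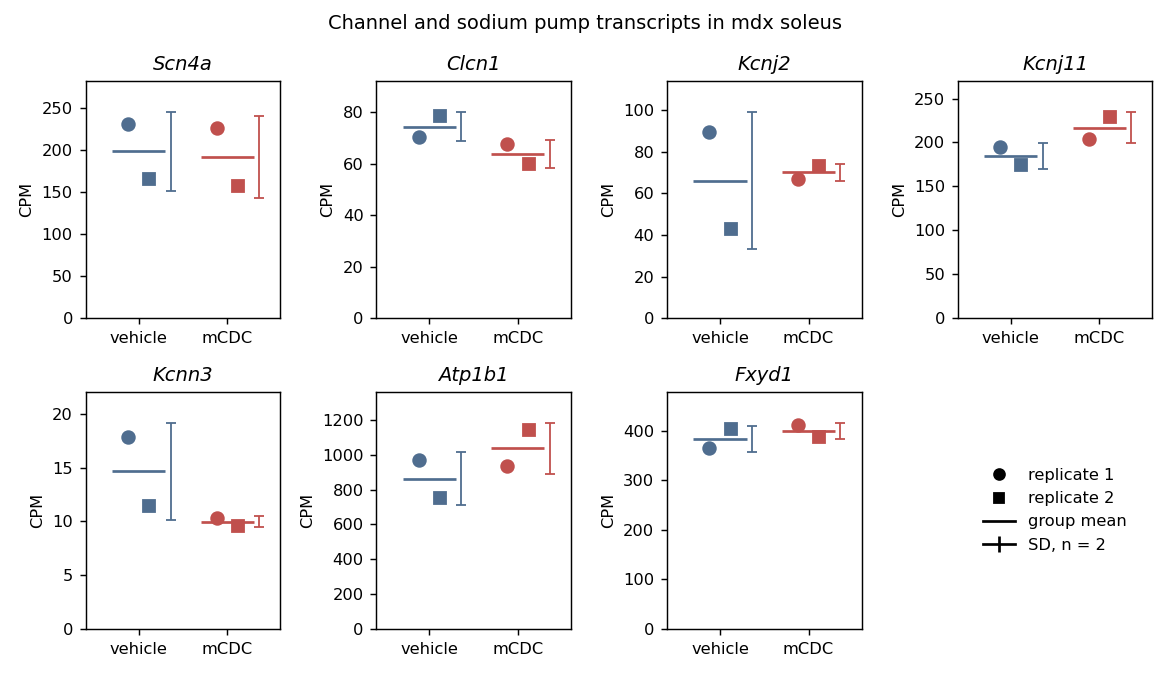
CPM of each gene in the 2 vehicle and 2 mCDC soleus libraries; symbols are replicates, horizontal lines group means and bars the SD (n = 2). *Kcnn3* was highest in vehicle replicate 1, at 17.9 CPM, with the other 3 libraries between 9.59 and 11.5, and *Kcnj2* spread from 42.9 to 89.6 CPM between the vehicle libraries.

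The sodium channel *Scn4a* had 226 and 157 CPM in mCDC replicates 1 and 2 and 232 and 166 CPM in vehicle replicates 1 and 2. Each group thus held a high and a low library, and the spread within groups was far wider than the difference between them, with 192 ± 48.9 CPM (SD, n = 2) in mCDC and 199 ± 46.9 CPM (SD, n = 2) in vehicle muscles. The log2 fold change was -0.05 (95% interval -0.55 to 0.45, edgeR quasi-likelihood adjusted p = 0.969). Its sign turned with single libraries, from 0.22 without vehicle replicate 1 and 0.19 without mCDC replicate 2 to -0.34 without mCDC replicate 1, and it was 0.059 with a length and GC trend removed. *Scn4b*, a β subunit that shapes sodium channel gating, was high and low in the same libraries, at 409 and 303 CPM in mCDC and 415 and 311 CPM in vehicle muscles. The fast (IIx) myosin *Myh1* followed the same order, with 4162 and 603 CPM in mCDC and 4490 and 1661 CPM in vehicle muscles, and the 8 slow fiber markers summed to 98590 and 85810 CPM in mCDC and 96020 and 80830 CPM in vehicle muscles. As a sum, the 9 fast fiber markers, *Myh1* among them, did not follow that order. Their sums were 37010 and 31140 CPM in mCDC and 30640 and 38070 CPM in vehicle muscles. *Tnnt3*, *Tnnc2*, *Tnni2* and *Mylpf* were each highest in vehicle replicate 2 and lowest in vehicle replicate 1. *Atp2a1* and *Pvalb* were, like *Myh1*, higher in replicate 1 than in replicate 2 of both groups. *Atp2a1* had 8367 and 5659 CPM in mCDC and 6806 and 6672 CPM in vehicle muscles. *Pvalb* had 648 and 16.8 CPM in mCDC and 161 and 109 CPM in vehicle muscles. *Myh2* ran the other way in both groups, and *Myh4* only in vehicle muscles. The part of fiber type in the *Scn4a* levels was not tested.

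*Scn4a* made up 87.6% to 94.2% of the transcripts of the 9 sodium channel pore genes reported here, per kilobase, in each library. *Scn2a1*, a sodium channel best known from neurons, took 9.09% and 8.43% in replicate 2 of the mCDC and vehicle groups, the libraries in which *Scn4a* was low, and 3.77% and 3.83% in replicate 1. Its level was 12.3 and 22.1 CPM in mCDC and 12.9 and 21.5 CPM in vehicle muscles, the reverse order of *Scn4a* within each group, and its log2 fold change was -0.0049 (standard error, SE, 0.32, edgeR quasi-likelihood adjusted p = 0.999). Of the 13 sodium channel genes reported here, 7 were tested and 0 were called, and the median log2 fold change of the 7 was -0.05. That median was -0.26 without mCDC replicate 1, -0.22 without vehicle replicate 2, -0.0067 without vehicle replicate 1 and -0.13 with plain library totals. Without mCDC replicate 2, 1 was called higher and the median was -0.43, without vehicle replicate 1, 1 was called lower, and with the length and GC trend removed the median was 0.059.

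**Figure D2:**
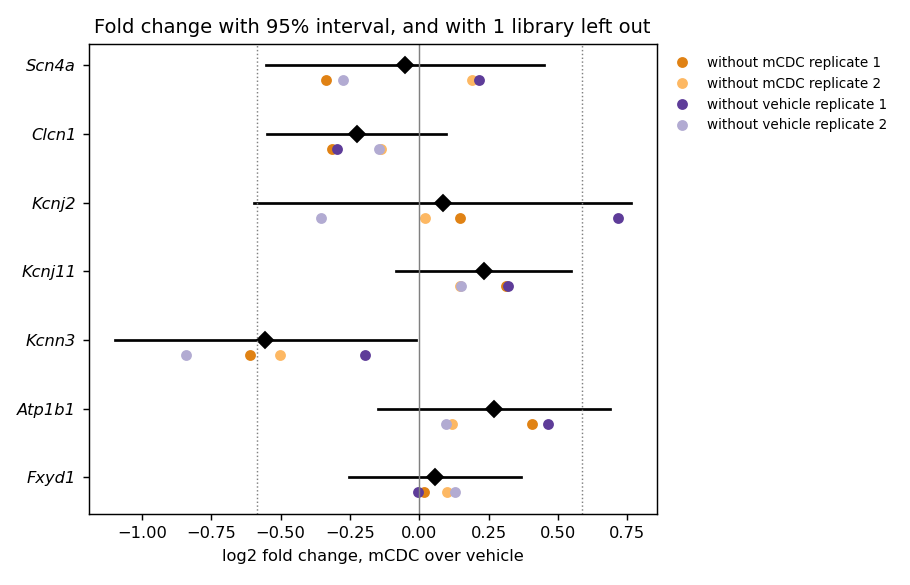
Log2 fold change of mCDC over vehicle for each gene (diamonds, all 4 libraries) with its 95% interval, and the value with 1 library left out (circles); dotted lines mark a 1.5-fold change. Leaving out vehicle replicate 1 or 2 moved *Kcnj2* to 0.72 or -0.35 and *Kcnn3* to -0.20 or -0.84, while *Clcn1* stayed between -0.31 and -0.14.

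*Clcn1* had 67.6 and 59.9 CPM in mCDC and 70.5 and 78.5 CPM in vehicle muscles. Both mCDC libraries lay below both vehicle libraries, by a small margin. The log2 fold change was -0.22 (95% interval -0.55 to 0.10, edgeR quasi-likelihood adjusted p = 0.763), and it was below 0 under all 12 alternative settings, with 0 calls. Where groups did not overlap, as for *Clcn1*, *Kcnj11* and *Kcnn3*, leaving out 1 library could hardly turn the sign. The remaining alternatives used the same 4 libraries. *Clcn1* accounted for 36.4% to 40.8% of the transcripts of 9 CLC family genes per kilobase. The next most abundant members were *Clcn4-2* and *Clcn7*, a lysosomal exchanger, which had log2 fold changes of -0.02 and -0.04. Of 11 genes of the family and its accessory subunits, 8 were tested and 0 called, against 4.0% of all genes tested. Log2 fold changes were below 0 in 7 of the 8, as in 7043 of the 13652 genes tested. The median was -0.18, which was -0.097 without mCDC replicate 2 and -0.11 without vehicle replicate 1. *Clcn3*, an endosomal exchanger, showed the largest difference of the 8 (log2 fold change -0.35, not called), with 28.1 and 25.8 CPM in mCDC and 39.4 and 29.5 CPM in vehicle muscles, chosen after its values were seen.

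The inward rectifier *Kcnj2* had 67.2 and 73.2 CPM in mCDC and 89.6 and 42.9 CPM in vehicle muscles. The vehicle libraries were the highest and the lowest of the 4, with both mCDC libraries between them. Its log2 fold change was 0.08 (95% interval -0.59 to 0.76, edgeR quasi-likelihood adjusted p = 0.962), an interval wide enough to hold a 1.5-fold change in either direction. Without vehicle replicate 1 it was called higher, at 0.72 (unadjusted p = 0.00356 in a quasi-likelihood fit of 3 libraries, which assumes that the lone vehicle library varies as the mCDC libraries do), and without vehicle replicate 2 it was at -0.35. *Kcnj12*, a close relative in the same family, was steadier, at 68.6 to 89.8 CPM with a log2 fold change of 0.07.

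*Kcnj11* had 204 and 230 CPM in mCDC and 195 and 174 CPM in vehicle muscles. Both mCDC libraries were higher than both vehicle libraries, with group values of 217 ± 17.7 and 185 ± 14.6 CPM (SD, n = 2). The log2 fold change was 0.23 (95% interval -0.08 to 0.55, edgeR quasi-likelihood adjusted p = 0.748), above 0 under all 12 alternatives, from 0.15 without mCDC replicate 2, without vehicle replicate 2 or with plain library totals to 0.32 without vehicle replicate 1. *Abcc9*, the sulfonylurea receptor that pairs with this pore in muscle, had 116 and 95.7 CPM in mCDC and 130 and 113 CPM in vehicle muscles, with a log2 fold change of -0.20 that was -0.020 with the length and GC trend removed, -0.34 without mCDC replicate 1, -0.066 without mCDC replicate 2 and -0.093 without vehicle replicate 1. The ratio of *Kcnj11* to *Abcc9*, per kilobase, was 4.20 and 5.72 in mCDC and 3.58 and 3.67 in vehicle muscles. The groups did not overlap in this ratio, as they did not for 38.7% of single genes tested. They overlapped in the ratios of *Clcn1* to *Scn4a* and of *Kcnj2* to *Clcn1*. *Kcnj11* contributed 54.0% to 60.9% of the transcripts of 15 Kir channel genes in each library, and *Kcnj2* 7.85% to 14.3%. Of 17 listed Kir and sulfonylurea receptor genes, 10 were tested and 0 were called, with a median log2 fold change of -0.05. That median was -0.14 without vehicle replicate 2 and -0.13 with plain library totals, and it turned to 0.018 with the length and GC trend removed, 0.013 without mCDC replicate 1 and 0.14 without vehicle replicate 1, where 1 gene was called higher and 1 lower.

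*Kcnn3* was the gene of the 7 with the largest difference. It had 10.3 and 9.59 CPM in mCDC and 17.9 and 11.5 CPM in vehicle muscles, from 210 to 468 expected counts per library. The vehicle libraries were both higher, but vehicle replicate 2 stood much nearer to the mCDC libraries than to vehicle replicate 1. The log2 fold change was -0.55 (SE 0.24, 95% interval -1.10 to -0.01), a 1.47-fold difference that fell short of 1.5-fold, with an unadjusted p of 0.0463 and an adjusted p of 0.714 in the edgeR quasi-likelihood test. *Kcnn3* ranked 876 by p among all genes tested. It remained below 0 under all 12 alternatives, and 3 of them called it. Without vehicle replicate 1 it was at -0.20 (unadjusted p = 0.350 in a quasi-likelihood fit of 3 libraries), and without vehicle replicate 2 it was called at -0.84. *Kcnn1*, the most abundant SK gene, was even at 31.2 to 34.9 CPM. *Kcnn3* took 38.8% of the SK transcripts per kilobase in vehicle replicate 1 and 26.5% to 27.5% in the other 3 libraries. The large-conductance channel *Kcnma1* had a log2 fold change of -0.08. Of 10 calcium-activated potassium channel genes, 6 were tested and 0 called, with a median of -0.14. The median was -0.30 with no low-count filter, -0.29 with DESeq2, -0.22 with plain library totals, -0.023 without mCDC replicate 1 and -0.073 without vehicle replicate 2. In each of 4 alternatives 1 gene was called lower, *Kcnn3* in 3 of them and another gene without mCDC replicate 1.

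*Kcnn3* is known both from denervated fibers and from endothelium, and markers of each are given beside it. The 8 denervation-associated genes reported here, which do not include *Kcnn3*, summed to 323 and 378 CPM in mCDC and 292 and 272 CPM in vehicle muscles. All 8 had a log2 fold change above 0, the opposite sign to *Kcnn3*, as did 6609 of the 13652 genes tested, and their median was 0.24. The transcription factors *Myog* and *Runx1* were called higher, 2 of 8 against 1.26% of all genes tested. *Myog* had 32.6 and 63.3 CPM in mCDC and 21.25 and 24.4 CPM in vehicle muscles. *Runx1* had 18.8 and 30.7 CPM in mCDC and 18.2 and 13.2 CPM in vehicle muscles. Both were highest in mCDC replicate 2, and *Runx1* in mCDC replicate 1 lay only just above vehicle replicate 1. The groups did not overlap for *Myog*, *Runx1* and *Chrna1*, the acetylcholine receptor α subunit, whereas they overlapped for the other 5. *Chrna1* had 87.4 and 82.0 CPM in mCDC and 75.6 and 66.7 CPM in vehicle muscles. These 3 of 8 stand beside 19.2% of all genes tested that were higher without overlap and 38.7% without overlap in either direction. The 7 endothelial markers were highest in vehicle replicate 2, not in vehicle replicate 1 where *Kcnn3* was highest, and all 7 had counts in these libraries. All 7 had a log2 fold change below 0, the same sign as *Kcnn3*, as did 7043 of the 13652 genes tested. Their median was -0.47, and 1 of the 7 was called lower against 2.74% of all genes tested. The part of either source in the *Kcnn3* level was not tested.

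The pump subunit *Atp1b1* had 933 and 1141 CPM in mCDC and 969 and 754 CPM in vehicle muscles, so that the groups overlapped. The means were 1037 ± 147 and 861 ± 152 CPM (SD, n = 2), and the log2 fold change was 0.27 (95% interval -0.15 to 0.69, edgeR quasi-likelihood adjusted p = 0.767). It was above 0 under all 12 alternatives, from 0.097 without vehicle replicate 2 to 0.46 without vehicle replicate 1. *Fxyd1* was the steadiest of the 7 genes, with 412 and 388 CPM in mCDC and 366 and 403 CPM in vehicle muscles, a 1.12-fold range from lowest to highest. Its log2 fold change was 0.06 (95% interval -0.25 to 0.37, edgeR quasi-likelihood adjusted p = 0.933), and its sign turned with plain library totals (-0.02).

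*Atp1b1* held 87.1% to 91.0% of the β subunit transcripts per kilobase and *Fxyd1* 81.3% to 84.2% of the FXYD transcripts, each with overlapping groups. *Fxyd6*, another FXYD gene, was second among them at 14.3% to 17.3%. It had 202 and 235 CPM in mCDC and 225 and 236 CPM in vehicle muscles, with a log2 fold change of -0.08 (SE 0.14). Of the 13 β subunit, FXYD and other pump genes reported here, 10 were tested and 0 were called, with a median log2 fold change of 0.07. Without mCDC replicate 1, 1 was called lower, without mCDC replicate 2, 1 was called higher, and the median turned to -0.10 without vehicle replicate 1 and to -0.013 with plain library totals.

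**Figure D3:**
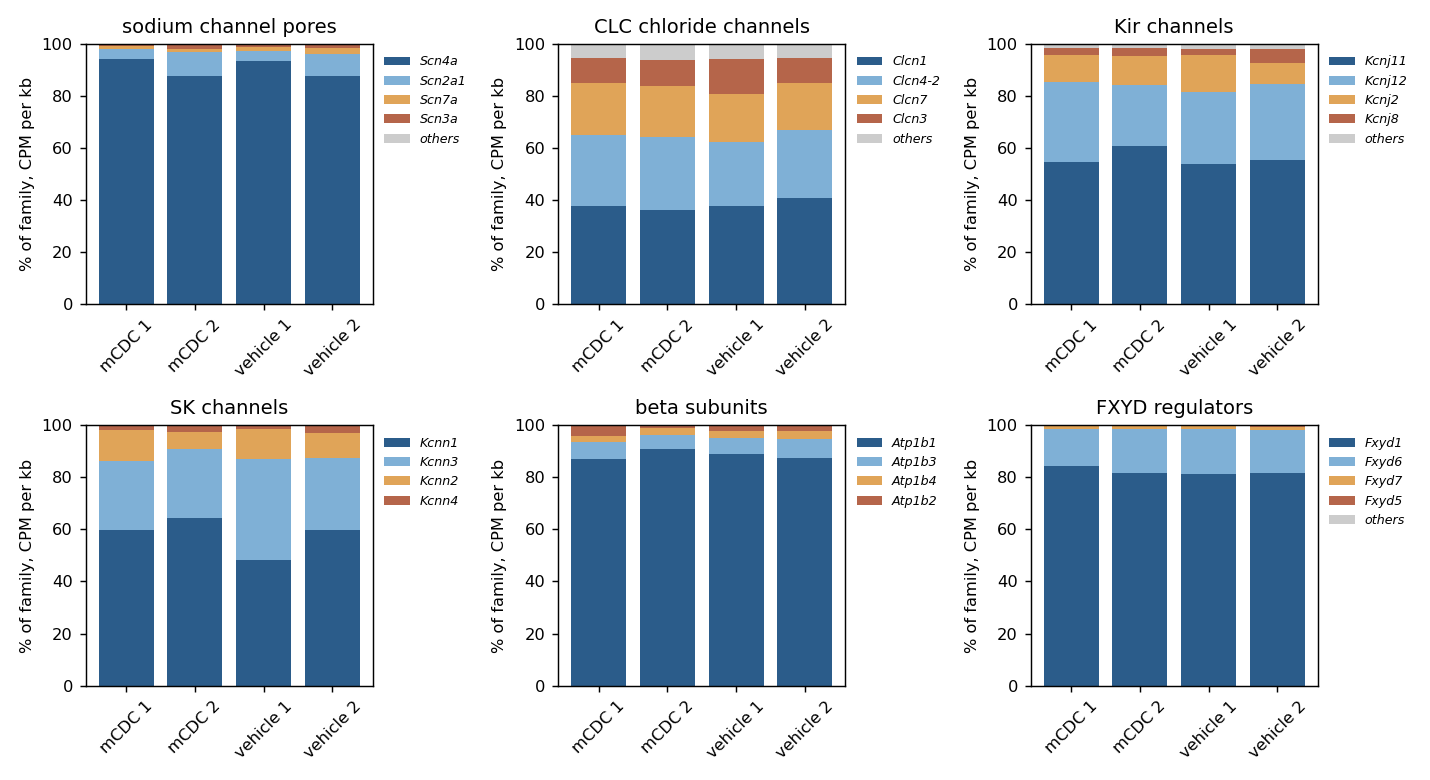
Share of each gene in the transcripts of its family's genes reported here, as a percentage of the summed CPM per kilobase of transcript, in each of the 4 libraries. *Scn4a*, *Atp1b1* and *Fxyd1* each held over 80% of their family in every library (lowest 87.6%, 87.1% and 81.3%), *Kcnj11* was the leading Kir gene and *Kcnn3* second to *Kcnn1* among the SK genes.

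Of the 36 voltage-gated and leak potassium channel genes reported here, 20 were tested and 1 was called, lower, against 2.74% of all genes tested, with a median log2 fold change of -0.18. With plain library totals 2 were called lower, and the median was -0.067 without vehicle replicate 2, -0.12 without mCDC replicate 1, -0.085 with the length and GC trend removed and -0.087 with at least 10 counts in every library. Among them *Kcna7* and *Kcnc1* had log2 fold changes of -0.02 and -0.08. *Kcna5*, a delayed rectifier also known from vascular smooth muscle, was called lower, with 2.35 and 3.29 CPM in mCDC and 4.35 and 5.68 CPM in vehicle muscles and a log2 fold change of -0.84 (SE 0.28, edgeR quasi-likelihood adjusted p = 0.673). It was not called without mCDC replicate 1 (-0.61) or vehicle replicate 2 (-0.63). The 7 smooth muscle markers summed to 226 and 217 CPM in mCDC and 177 and 242 CPM in vehicle muscles. Of these 7, 4 had a log2 fold change above 0 and 3 below, and 1, *Rgs5*, was called lower (-0.60). *Rgs5* had 14.4 and 13.2 CPM in mCDC and 20.8 and 21.2 CPM in vehicle muscles.

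Of 12 anchoring and turnover genes, 11 were tested and 2 called, both lower, against 2.74% of all genes tested called lower. The median log2 fold change was -0.10, and it turned to 0.043 with the length and GC trend removed and, with 1 library left out, ran from -0.28 without vehicle replicate 2 and -0.19 without mCDC replicate 1 to 0.0046 without mCDC replicate 2 and 0.084 without vehicle replicate 1. It was -0.18 with plain library totals. *Sptbn1*, a spectrin of the membrane skeleton, had 94.9 and 86.1 CPM in mCDC and 132 and 154 CPM in vehicle muscles, and its log2 fold change was -0.66 (SE 0.14, edgeR quasi-likelihood adjusted p = 0.527). It was at -0.47 with the length and GC trend removed and -0.54 without vehicle replicate 2, short of 1.5-fold in both. *Sgk1*, a kinase that raises the surface level of several channels, had 31.5 and 29.3 CPM in mCDC and 62.3 and 34.1 CPM in vehicle muscles, and its log2 fold change of -0.66 was -0.16 without vehicle replicate 1 and -1.04 without vehicle replicate 2. *Ank1*, *Sptb* and *Nedd4*, the most abundant genes of this list, had log2 fold changes of 0.31, -0.10 and -0.23 and were not called. That of *Nedd4* was -0.036 without vehicle replicate 1, -0.40 without vehicle replicate 2 and -0.094 with the length and GC trend removed.

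**Figure D4:**
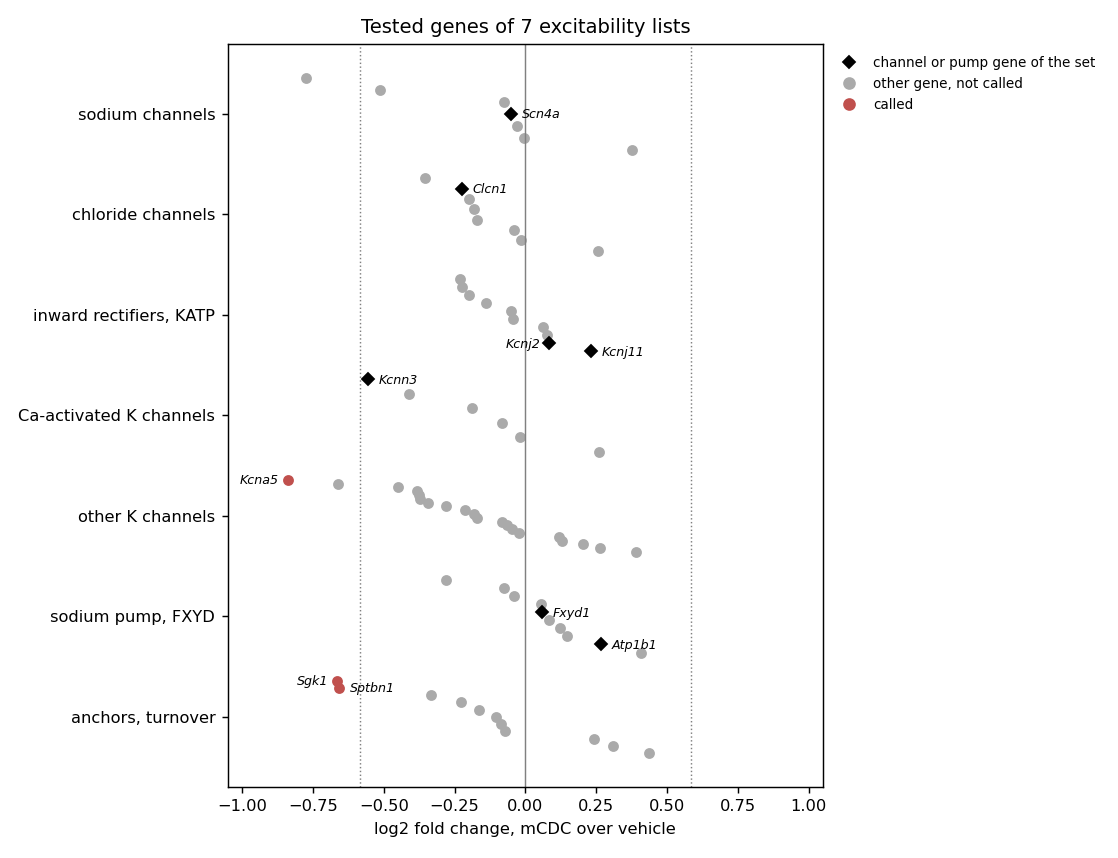
Log2 fold change of mCDC over vehicle for each tested gene reported of 7 excitability lists, with the 7 genes described here as diamonds, called genes in red and dotted lines at a 1.5-fold change. *Kcna5*, *Sptbn1* and *Sgk1* lie beyond the lower line, as do 2 gray points that were not called.

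The 7 genes did not share a single profile over the libraries. The closest pair was *Kcnj11* and *Atp1b1*, both highest in mCDC replicate 2 and lowest in vehicle replicate 2, with a root-mean-square difference of 0.085 between their log2 CPM after each was centered on its own mean. The farthest pair was *Clcn1* and *Kcnj2*, at 0.487, with *Clcn1* highest and *Kcnj2* lowest in vehicle replicate 2. *Kcnj2* covered a 2.09-fold range over the 4 libraries, *Kcnn3* 1.86-fold, *Atp1b1* 1.51-fold, *Scn4a* 1.47-fold and the others less. Among 7685 tested genes with a mean of at least 10 CPM, the profile nearest to that of *Scn4a* was *Atl2* (difference 0.029), that nearest to *Kcnn3* was *Heca* (0.047) and that nearest to *Kcnj2* was *Ell* (0.041). For *Clcn1*, *Kcnj11*, *Atp1b1* and *Fxyd1* the nearest were *Mcm3ap*, *Rbmxl1*, *Wfs1* and *Coa7*, at 0.0033 to 0.011. With 4 libraries, this likeness is a description only.

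**Figure D5:**
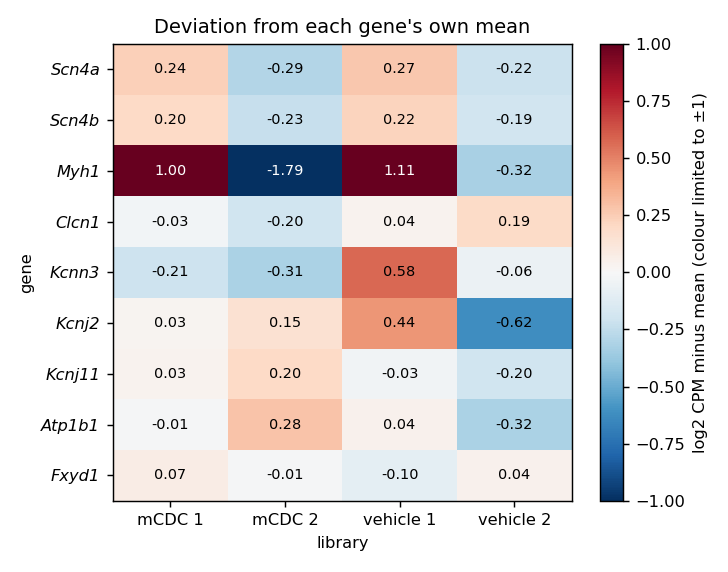
Log2 CPM of each gene minus its own mean over the 4 libraries (columns), for the 7 genes and for *Scn4b* and *Myh1*; red is above and blue below the mean, with colors limited to ±1. *Scn4a*, *Scn4b* and *Myh1* were above their mean in replicate 1 and below it in replicate 2 of both groups, and *Kcnj11* and *Atp1b1* were farthest above it in mCDC replicate 2. The sum of the 9 fast fiber markers, *Myh1* among them, did not follow the order of *Myh1*.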

How the data were processed

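Per the labels and the study's methods, single-end reads from soleus RNA were mapped to a UCSC transcript set with Bowtie2 2.1.0 (build mm10), and the authors deposited RSEM 1.2.15 expected counts per gene without normalization, 1 column per library. The methods name an xGen library kit and the sample records a stranded mRNA kit. The deposited expected counts, rounded, were fitted with edgeR 4.0.16 in R 4.3.3 (filterByExpr, TMM, quasi-likelihood F-test with legacy = FALSE). CPM used the TMM-scaled library sizes, and log2 CPM a prior count of 2. Standard errors and 95% intervals of fold changes were derived from the F statistic and its degrees of freedom. Length and GC of transcripts were taken from GENCODE M21, which covered 99.1% of tested genes.

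The 7 genes and the gene lists were chosen with earlier results of these data known; genes that are not reported here were left out of the lists, so counts and medians of a list cover its remaining genes only. Named genes are the 7, every called gene of the 7 excitability lists, up to 3 of the most abundant genes of each list, and the nearest profile of each of the 7. *Clcn3* and the genes named from the marker lists were chosen outside that rule, after their values were seen. Alternatives were DESeq2 1.42.0, the legacy quasi-likelihood test, RLE size factors, plain library totals, no low-count filter, a filter of at least 10 counts per library, a replicate block, correction for transcript length and GC content, and each library left out in turn. Scripts were tested on simulated data with known changes. Of the 7 genes *Kcnn3* had the fewest counts, 210 to 468 per library.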

Additional observations from a re-analysis of the deposited data

How the results depend on the processing

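Of the 7 genes, 0 were called in the fit reported; 1 was with plain library totals and with the length and GC trend removed, *Kcnn3* in both (-0.63 and -0.61). The number with an unadjusted p under 0.05, 1 in the fit reported, was 0 with DESeq2 and 0 with no filter. With 1 library left out, 0 to 1 of the 7 were called, 0 to 1 had p under 0.05, and 112 to 396 genes of the whole table were called higher and 237 to 834 lower. Plain library totals gave 121 genes higher and 508 lower, or 19.2% of calls higher against 31.5% with TMM. Signs turned with the trend removed for *Scn4a* (0.059), *Fxyd1* (-0.049), *Scn4b* (0.016), *Clcn4-2* (0.070), *Kcnma1* (0.15), *Kcnc1* (0.031), *Scn2a1* (0.19) and *Sptb* (0.043), with DESeq2 and RLE size factors for *Scn2a1* (0.012 and 0.00087), and with library totals for *Fxyd1* (-0.023) and *Kcnj12* (-0.0044). Over the fits with 1 library left out, *Scn4a* ran from -0.34 to 0.22, *Kcnj2* from -0.35 to 0.72, *Kcnn3* from -0.84 to -0.20, *Fxyd1* from -0.0063 to 0.13, *Scn4b* from -0.26 to 0.20, *Clcn4-2* from -0.086 to 0.059, *Clcn7* from -0.12 to 0.032, *Kcnj12* from -0.13 to 0.26, *Kcnma1* from -0.21 to 0.054, *Kcnn1* from -0.095 to 0.062, *Kcna7* from -0.12 to 0.088, *Kcnc1* from -0.25 to 0.11, *Scn2a1* from -0.49 to 0.41, *Fxyd6* from -0.19 to 0.032 and *Sptb* from -0.30 to 0.13. The causes were not tested. With the replicate block, *Kcnn3* was at -0.53 (edgeR unadjusted p = 0.0389), 172 genes were called higher and 309 lower, and the number of the 7 genes called was 0; same-numbered libraries deviated with a correlation of -0.039 over 13652 genes, so the numbers were not taken to pair the libraries. What depth limits was not measured apart from the spread between libraries.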
